A study of Arabidopsis thaliana with 12 samples.

Results

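The genes described here are 32 loci of Arabidopsis thaliana that encode enzymes and regulators of tetrapyrrole synthesis and chlorophyll breakdown, among 23553 genes measured. They were taken by locus from the array annotation: 5 genes of aminolevulinic acid (ALA) synthesis, 7 of the steps from ALA to protoporphyrin, 8 of the magnesium branch, 3 that complete chlorophyll, 4 of the heme and bilin branch and 5 of chlorophyll breakdown. The protochlorophyllide oxidoreductases are not among them. RNA came from whole wild-type Col-0 seedlings, kept cold in darkness for 3 days and then grown under blue light (continuous, 10 µmol m-2 s-1) for 4 days. Seedlings received 3-bromo-7-nitroindazole (3B7N), 3-bromoindazole (3BRO, the same ring without nitro), 7-nitroindazole (7NIT, the same ring without bromo), each at 2.5 µM, or dimethyl sulfoxide (DMSO), the solvent. Each of the 4 treatments had 3 single-colour Agilent arrays. A cry1cry2 genotype that the design text names was not analysed here. Whether the 3 samples of a treatment were separate cultures is not given by the labels, and p-values rest on a spread between samples that may be only technical.

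Tetrapyrroles are ring-shaped pigments and cofactors that plastids build from glutamate by way of ALA. At protoporphyrin the pathway splits: insertion of magnesium leads to chlorophyll, and insertion of iron leads to heme, from which the bilin chromophore of phytochrome is made. Free intermediates are phototoxic, so plants regulate ALA synthesis tightly, and in greening seedlings light raises transcripts of many of these enzymes. During senescence another set of enzymes converts chlorophyll to colourless products.

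Levels are given as log2 of the scanner's processed signal with the 75th percentile of each array set to 0, and each gene is represented by its brightest probe. A level of 1 gene is compared across arrays only, never with that of another gene, except in the sums of tissue markers. For paralogue pairs, only the change of their ratio between treatments is read. All 32 genes were well above background on all 12 arrays, none (0) was saturated, and none (0) lacked a value on any array. The 75th percentile of the processed signal ranged from 1772 to 3749 over the arrays, and 77.2% to 84.7% of probes were well above background. The arrays lay on 3 slides, scanned on 2 days. Slide 1 held the 3 DMSO arrays and 3BRO 1, slide 2 held 3BRO 2, 3BRO 3, 3B7N 1 and 3B7N 2, and slide 3 held the 3 7NIT arrays and 3B7N 3. No slide or scan day held both 3B7N and DMSO.

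**Figure D1:**
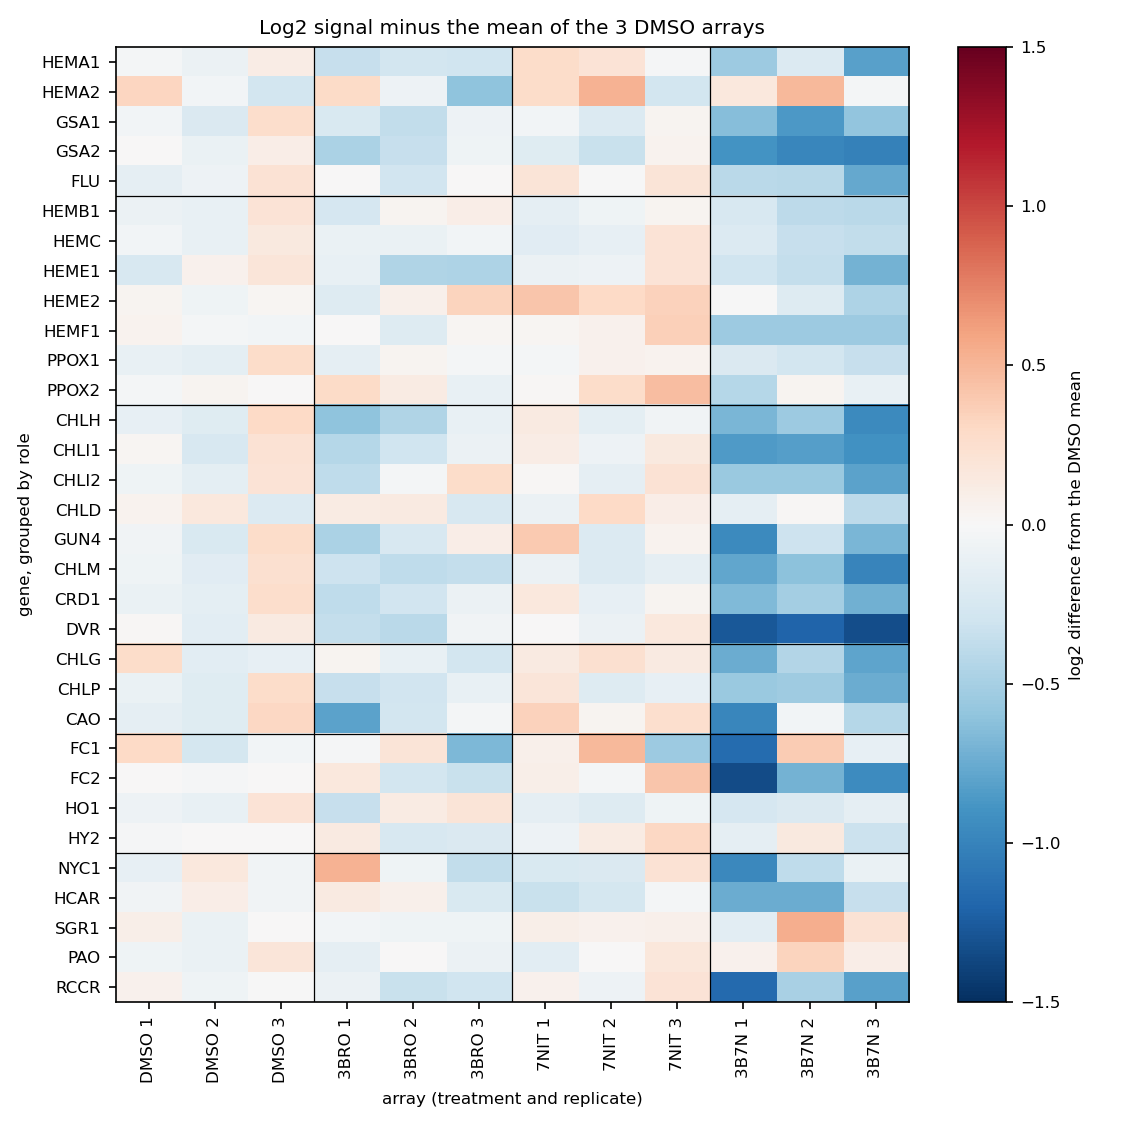
Log2 signal of the 32 genes (rows, grouped by role) on the 12 arrays (columns) minus each gene's mean over the 3 DMSO arrays, on a colour scale of log2 units. The 3B7N columns are mostly below 0, with medians over the genes of -0.56, -0.38 and -0.56, while the medians of the other 9 arrays lie between -0.21 and 0.14.

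The study's design text names 3B7N against DMSO as its question. Of the 32 genes, 15 fell with 3B7N, 0 rose and 17 did not pass (limma, Benjamini-Hochberg adjusted over all genes at 0.05). The fallen share was 46.9% of the genes, against 10.0% of all genes tested that were lower, 5.61% that were higher and 15.6% that were called in either direction. The lowest values were those of DVR, FC2, GSA2 and CHLI1, which stood at 41.6%, 50.3%, 51.4% and 55.0% of their DMSO levels. The median log2 difference over the 32 genes was -0.52, and over all genes it was -0.01, while after quantile normalisation these medians were -0.32 and 0.06. In 29 of 32 genes the difference was below 0, as it was in 51.1% of all genes.

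In 22 of 32 genes (68.8%) every 3B7N array lay below every DMSO array, which was so for 19.3% of all genes. The reverse order was found in 0 of 32 genes and in 15.4% of all genes. In 16 of 32 (50.0%) every 3B7N array lay below the 9 arrays of the other treatments, against 10.1% of all genes. Taken one treatment at a time, the 3B7N arrays lay below all 3BRO arrays in 16 genes (50.0%, against 13.9% of all genes) and below all 7NIT arrays in 23 (71.9%, against 24.7%). The number of genes below their DMSO mean was 30, 25 and 30 on the 3B7N arrays, 22, 24 and 26 on the 3BRO arrays, 13, 19 and 8 on the 7NIT arrays and 21, 26 and 8 on the DMSO arrays themselves, so by this count 3B7N 2 lay within the range of the DMSO and 3BRO arrays.

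Slides and scan days overlapped with treatments, so the same comparison was also fitted with each as a fixed block. There 3B7N and DMSO are linked through the 3BRO arrays, of which only 3BRO 1 shared a slide and scan day with DMSO. The blocked estimates depend on that 1 array for the link. With slide as a block 2 of the 32 genes passed, GSA2 and DVR, and 3.18% of all genes did. The median over the genes was then -0.52, and all 15 fallen genes kept a negative sign. With scan day as a block the same 2 genes passed and the median was -0.55. Under the slide block FC2 was at -0.55 (SE 0.34), CHLG at -0.36 (SE 0.29) and FLU at -0.26 (SE 0.27), smaller than without it, and CHLI2 at -1.07 (SE 0.29), larger. Leaving out DMSO 1 left 9 of the 15 genes called, and in the other arrangements with 1 array left out 10 to 15 genes were called.

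**Figure D2:**
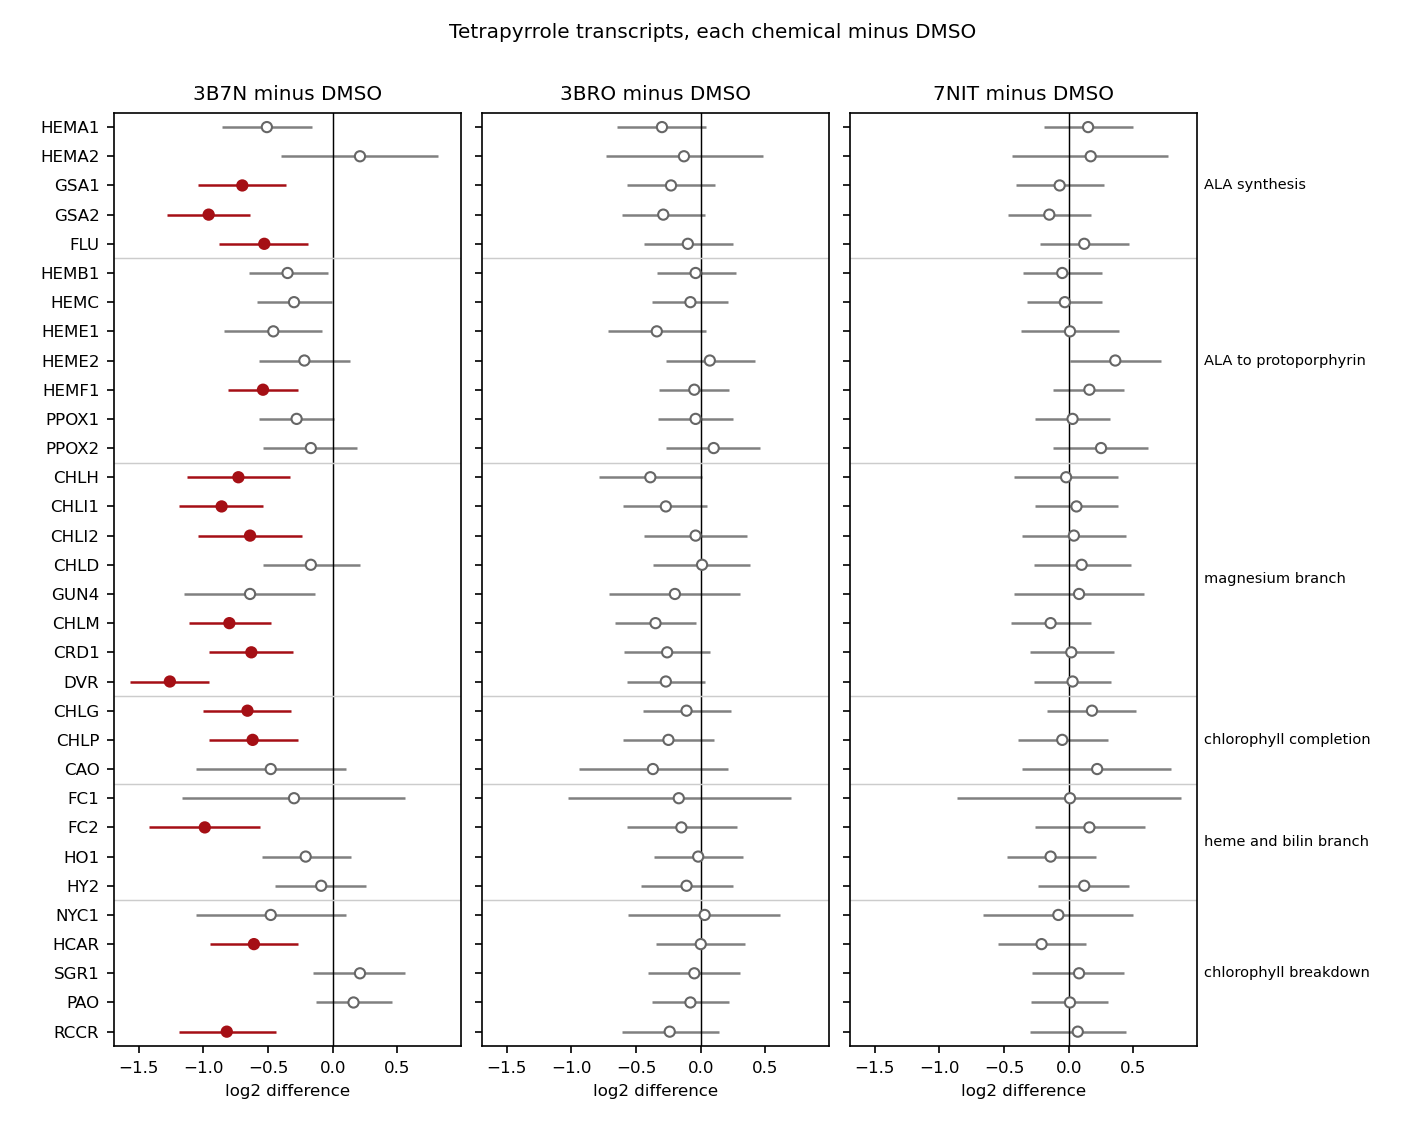
Log2 difference from DMSO of each gene (points, with 95% confidence intervals as bars) for 3B7N, 3BRO and 7NIT, with filled red points for genes past the threshold. In the 3B7N panel 15 genes are filled and all lie left of 0, and in the other panels 0 are filled.

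Among the 5 genes of ALA synthesis, 3 fell with 3B7N, against 10.0% of all genes that were lower. GSA2 (AT3G48730) encodes glutamate semialdehyde aminotransferase, the enzyme that forms ALA. Its levels were 3.40, 3.30 and 3.50 with DMSO, 2.92, 3.06 and 3.34 with 3BRO, 3.22, 3.07 and 3.45 with 7NIT, and 2.50, 2.42 and 2.39 with 3B7N. The 3B7N arrays were the lowest and spread the least (SD 0.05, n = 3), and they overlapped with no other treatment. GSA2 was lower by 0.96 log2 units in 3B7N than in DMSO (log2 difference -0.96, SE 0.14, limma adjusted p = 0.002).

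GSA1 (AT5G63570) encodes the other form of that enzyme. It was at 2.33, 2.15 and 2.63 with DMSO, at 2.14, 2.0 and 2.29 with 3BRO, at 2.33, 2.16 and 2.41 with 7NIT, and at 1.73, 1.51 and 1.78 with 3B7N. All 3 3B7N values lay below the 9 others (log2 difference from DMSO -0.70, SE 0.15, limma adjusted p = 0.013). FLU (AT3G14110), a repressor of ALA synthesis that acts on glutamyl-tRNA reductase, fell as well (-0.53, SE 0.16, limma adjusted p = 0.041).

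Glutamyl-tRNA reductase, the step at which ALA synthesis is controlled, has 2 forms among these genes, HEMA1 (AT1G58290), the form of green tissue, and HEMA2 (AT1G09940). HEMA1 was at 4.63, 4.57 and 4.77 with DMSO, 4.31, 4.38 and 4.36 with 3BRO, 4.94, 4.86 and 4.64 with 7NIT, and 4.12, 4.46 and 3.85 with 3B7N. The 3B7N arrays lay below the DMSO and 7NIT arrays and overlapped with those of 3BRO. Its difference from DMSO of -0.51 (95% interval -0.86 to -0.16) narrowly missed the threshold (limma adjusted p = 0.051). HEMA2 gave 1.85, 1.49 and 1.25 with DMSO, 1.82, 1.45 and 0.93 with 3BRO, 1.80, 2.05 and 1.25 with 7NIT, and 1.69, 2.02 and 1.5 with 3B7N. Its treatments overlapped throughout, and the difference of 3B7N from DMSO was 0.21 (95% interval -0.40 to 0.81).

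Between ALA and protoporphyrin 1 of 7 genes fell, or 14.3%, a share near the 10.0% of all genes that were lower. All 7 differences were below 0, as were 51.1% of those of all genes. The one past the threshold was HEMF1 (AT1G03475), a coproporphyrinogen oxidase, at -0.54 (SE 0.12, limma adjusted p = 0.015), whose 3B7N arrays were at 1.34, 1.35 and 1.35 and its DMSO arrays at 1.94, 1.86 and 1.85. HEMB1 (AT1G69740), ALA dehydratase, was at -0.35 (95% interval -0.65 to -0.04), and HEMC (AT5G08280), porphobilinogen deaminase, at -0.30 (-0.59 to -0.01). Neither passed after adjustment.

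Uroporphyrinogen decarboxylase is encoded by HEME1 (AT3G14930) and HEME2 (AT2G40490). HEME1 was at 2.22, 2.52 and 2.64 with DMSO, 2.35, 2.01 and 2.0 with 3BRO, 2.37, 2.38 and 2.67 with 7NIT, and 2.16, 2.1 and 1.75 with 3B7N. HEME2 stood at 2.23, 2.12 and 2.22 with DMSO, 2.0, 2.27 and 2.52 with 3BRO, 2.61, 2.49 and 2.54 with 7NIT, and 2.18, 2.0 and 1.73 with 3B7N. For HEME1 the 3B7N arrays lay just under the DMSO arrays, and for HEME2 they overlapped. Neither passed, with differences of -0.46 (95% interval -0.84 to -0.08) and -0.22 (-0.57 to 0.13).

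Protoporphyrinogen oxidase is encoded by PPOX1 (AT4G01690) and PPOX2 (AT5G14220). PPOX1 was at 3.12, 3.08 and 3.50 with DMSO, 3.1, 3.27 and 3.20 with 3BRO, 3.20, 3.30 and 3.28 with 7NIT, and 3.01, 2.96 and 2.89 with 3B7N. PPOX2 was at 0.11, 0.18 and 0.15 with DMSO, 0.43, 0.26 and 0.03 with 3BRO, 0.16, 0.41 and 0.60 with 7NIT, and -0.29, 0.18 and 0.03 with 3B7N. The 3B7N values of PPOX1 were below all others, by a small margin, and those of PPOX2 overlapped with DMSO. Neither difference passed, at -0.28 (95% interval -0.57 to 0.01) for PPOX1 and -0.17 (-0.54 to 0.19) for PPOX2.

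The magnesium branch held the most fallen genes, 6 of 8, against 10.0% of all genes that were lower. Its median log2 difference was -0.69, against -0.01 over all genes. DVR (AT5G18660), the divinyl reductase that converts a vinyl group of the chlorophyll precursor to ethyl, had the largest difference of the 32 genes. On the DMSO arrays it was at 3.97, 3.79 and 4.08, on the 3BRO arrays at 3.59, 3.55 and 3.90, on the 7NIT arrays at 3.96, 3.86 and 4.11, and on the 3B7N arrays at 2.68, 2.75 and 2.62. The 3B7N arrays formed a tight group (SD 0.07, n = 3) well under the other 9. DVR fell by 1.26 log2 units (SE 0.14, 95% interval -1.57 to -0.96, limma adjusted p = 0.00043), a 2.40-fold lower level, and it was at -1.37 (SE 0.27, adjusted p = 0.033) with slide as a block.

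**Figure D3:**
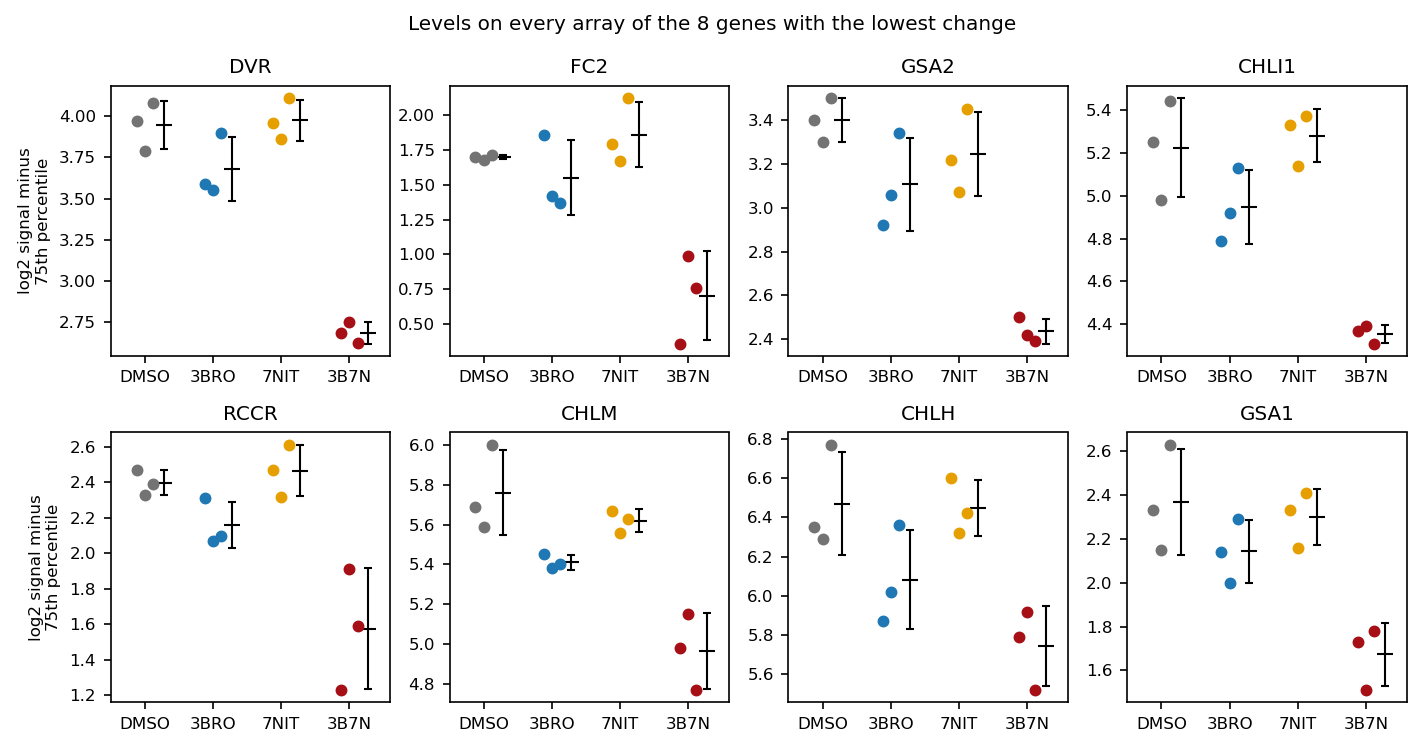
Log2 signal minus the array's 75th percentile on each array (points) for the 8 called genes with the lowest differences between 3B7N and DMSO, with the mean and SD of the 3 arrays of a treatment beside them as dash and bars. Vertical axes differ between panels and do not start at 0. In 7 of the 8 panels the 3B7N points lie below those of all other treatments, and for CHLH the highest 3B7N point (5.92) lies above the lowest 3BRO point (5.87).

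Magnesium chelatase inserts magnesium into protoporphyrin and is made of the subunits CHLH, CHLI and CHLD. CHLH (AT5G13630), the subunit that binds the porphyrin, was at 6.35, 6.29 and 6.77 with DMSO, 5.87, 6.02 and 6.36 with 3BRO, 6.60, 6.32 and 6.42 with 7NIT, and 5.79, 5.92 and 5.52 with 3B7N. The 3B7N arrays were below DMSO and 7NIT and overlapped with 3BRO, and CHLH fell by 0.73 from DMSO (SE 0.18, limma adjusted p = 0.022).

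CHLI1 (AT4G18480), the main ATPase subunit, was at 5.25, 4.98 and 5.44 with DMSO, 4.79, 4.92 and 5.13 with 3BRO, 5.33, 5.14 and 5.37 with 7NIT, and 4.37, 4.39 and 4.31 with 3B7N. The second ATPase gene, CHLI2 (AT5G45930), was at 2.48, 2.39 and 2.75 with DMSO, 2.16, 2.51 and 2.82 with 3BRO, 2.56, 2.41 and 2.76 with 7NIT, and 1.98, 1.98 and 1.74 with 3B7N. For both, the 3B7N arrays were the lowest and did not overlap with the rest. CHLI1 fell by 0.86 (SE 0.15, limma adjusted p = 0.0035) and CHLI2 by 0.64 (SE 0.18, adjusted p = 0.037). CHLD (AT1G08520), the third subunit, was at -0.17 (95% interval -0.54 to 0.21) and did not pass. GUN4 (AT3G59400), which binds porphyrins and activates the chelatase, was at -0.64 with a wider interval (-1.15 to -0.14) and did not pass (limma adjusted p = 0.081), although its 3B7N arrays lay below its DMSO arrays.

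Downstream of the chelatase, CHLM (AT4G25080), the magnesium protoporphyrin methyltransferase, was at 5.69, 5.59 and 6.0 with DMSO, 5.45, 5.38 and 5.40 with 3BRO, 5.67, 5.56 and 5.63 with 7NIT, and 4.98, 5.15 and 4.77 with 3B7N. The 3B7N arrays were the lowest, and the 3BRO arrays lay between them and DMSO without overlap on either side. CHLM fell by 0.80 with 3B7N (SE 0.14, limma adjusted p = 0.0043). CRD1 (AT3G56940), a subunit of the cyclase that closes the fifth ring, fell by 0.63 (SE 0.15, limma adjusted p = 0.017).

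Of the 3 genes that complete chlorophyll, 2 fell (66.7%, against 10.0% of all genes). CHLG (AT3G51820), chlorophyll synthase, which attaches the phytyl tail, was lower by 0.66 log2 units (log2 difference -0.66, SE 0.15, limma adjusted p = 0.017), with 3B7N arrays at 1.71, 2.01 and 1.66 and DMSO arrays at 2.72, 2.29 and 2.33. CHLP (AT1G74470), the geranylgeranyl reductase that supplies phytyl groups, was at -0.62 (SE 0.16, adjusted p = 0.025). CAO (AT1G44446), the oxygenase that makes chlorophyll b, was at -0.48 and did not pass (95% interval -1.06 to 0.10). Its 3B7N arrays were spread from 2.35 to 3.29 and its DMSO arrays from 3.15 to 3.64.

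In the heme and bilin branch 1 of 4 genes fell (25.0%, against 10.0% of all genes). FC2 (AT2G30390), the ferrochelatase of photosynthetic tissue, was at 1.70, 1.68 and 1.71 with DMSO, 1.86, 1.42 and 1.37 with 3BRO, 1.79, 1.67 and 2.12 with 7NIT, and 0.36, 0.99 and 0.76 with 3B7N. Its 3B7N arrays were the lowest but varied more (SD 0.32) than its DMSO arrays (SD 0.02). FC2 fell by 0.99 (SE 0.19, limma adjusted p = 0.0069). FC1 (AT5G26030), the other ferrochelatase, was at 0.85, 0.29 and 0.51 with DMSO, 0.53, 0.74 and -0.12 with 3BRO, 0.63, 1.04 and 0.00 with 7NIT, and -0.61, 0.93 and 0.43 with 3B7N. Its arrays overlapped in every treatment, and its difference of -0.30 (95% interval -1.17 to 0.56) did not pass. HO1 (AT2G26670), the heme oxygenase that opens the heme ring, was at -0.21 (95% interval -0.55 to 0.14), and HY2 (AT3G09150), which makes the phytochrome chromophore, at -0.09 (-0.45 to 0.26).

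Among the 5 genes of chlorophyll breakdown, 2 fell (40.0%, against 10.0% of all genes) and 3 did not pass. RCCR (AT4G37000), the red chlorophyll catabolite reductase, was at 2.47, 2.33 and 2.39 with DMSO, 2.31, 2.07 and 2.1 with 3BRO, 2.47, 2.32 and 2.61 with 7NIT, and 1.23, 1.91 and 1.59 with 3B7N. The 3B7N arrays lay below the other 9, and RCCR fell by 0.82 (SE 0.17, limma adjusted p = 0.0094). HCAR (AT1G04620), which returns chlorophyll b to chlorophyll a by reducing the hydroxymethyl intermediate, fell by 0.61 (SE 0.15, adjusted p = 0.023), from -0.10, 0.05 and -0.10 with DMSO to -0.79, -0.79 and -0.40 with 3B7N. NYC1 (AT4G13250), chlorophyll b reductase, was at -0.48 (95% interval -1.06 to 0.10). SGR1 (AT4G22920), which removes magnesium from chlorophyll, was at 0.21 (-0.15 to 0.56), and PAO (AT3G44880), the oxygenase that opens the ring, was at 0.16 (-0.13 to 0.46). SGR1, PAO and HEMA2 were the 3 genes with a difference above 0, and their 3B7N arrays overlapped with DMSO.

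The 6 pairs of paralogues were compared by the log2 ratio of the first gene to the second on each array, a measure of unequal change. HEMA1 moved against HEMA2 by -0.72 between DMSO and 3B7N, and CHLI1 against CHLI2 by -0.22. In both pairs the ratios with 3B7N and DMSO did not overlap (exact permutation p = 0.1, two-sided, the smallest that 3 against 3 arrays allow, adjusted p = 0.3 over the 6 pairs). FC1 moved against FC2 by 0.69, GSA1 against GSA2 by 0.26, HEME1 against HEME2 by -0.24 and PPOX1 against PPOX2 by -0.11, with overlapping ratios and adjusted p of 0.3 to 0.5 by the exact permutation test. The design cannot reach 0.05 for any of the 6 pairs.

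**Figure D4:**
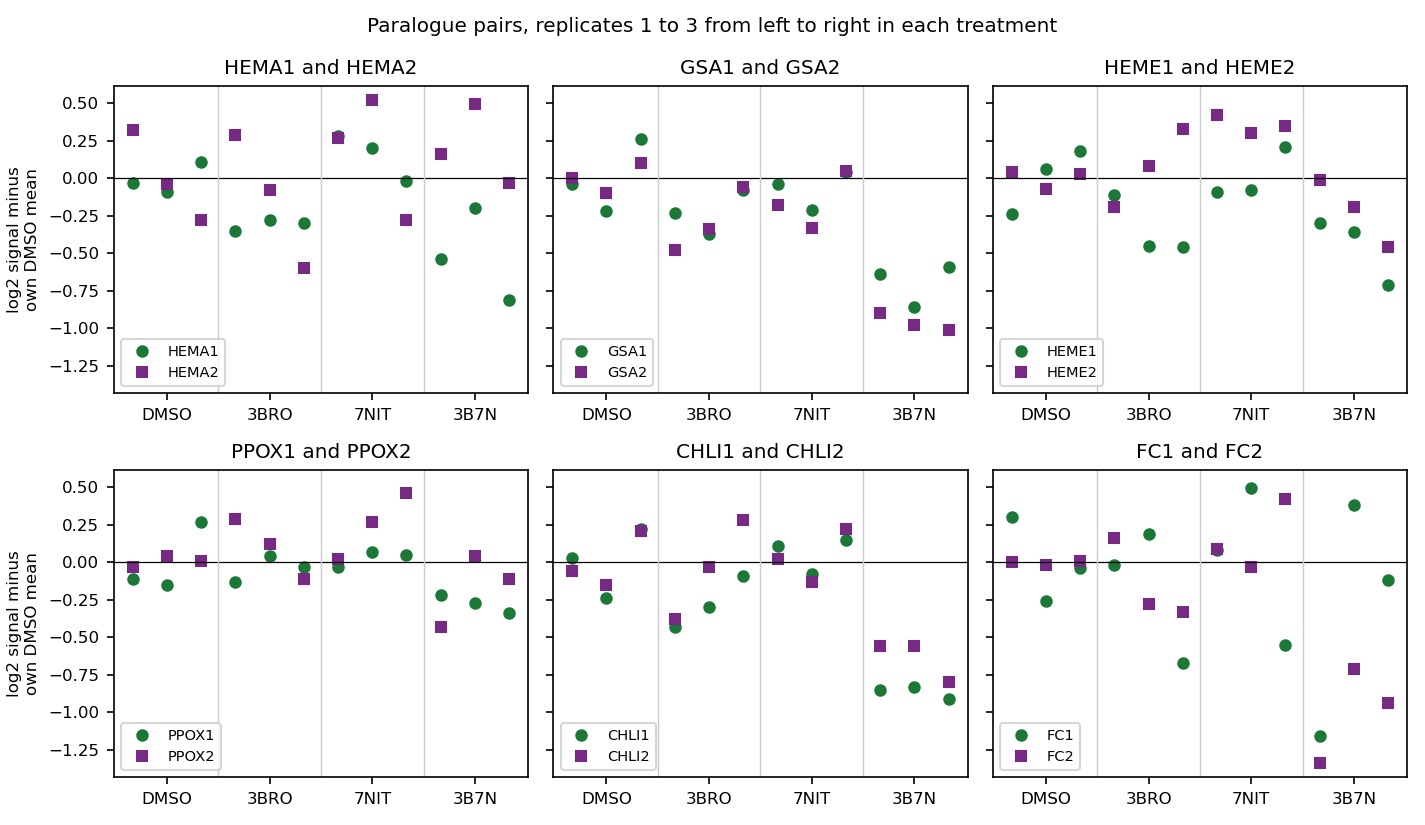
Log2 signal minus the gene's own DMSO mean on each array for the 6 paralogue pairs, with circles for the first gene and squares for the second and replicates 1 to 3 from left to right in each treatment. The GSA1 and GSA2 points and the CHLI1 and CHLI2 points are all below 0 with 3B7N, while those of HEMA2 and FC1 are spread around 0.

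Markers of tissues were read on the same arrays, since in whole seedlings fewer cells of a type and less RNA per cell cannot be told apart. Of 5 green tissue markers 4 fell with 3B7N (80.0%, against 10.0% of all genes, median log2 difference -0.61). The value of RBCS1A rests on 2 DMSO arrays because its spot on DMSO 1 was left out. The log2 of the summed level was read for the 4 green markers with a value on every array. It was 8.76 to 9.16 with DMSO and 8.21 to 8.51 with 3B7N, which did not overlap. With 7NIT it was 8.47 to 8.68, also below DMSO and overlapping with 3B7N. With 3BRO it was 8.61 to 8.83, overlapping with DMSO. The median difference of the 5 green markers between 7NIT and DMSO was -0.43, and 0 were called. Of 5 root markers 4 fell (80.0%, against 10.0% of all genes, median -1.48). The summed root level was 6.73 to 7.04 with DMSO and 6.23 to 6.42 with 3B7N, which did not overlap either. With 7NIT it was 6.44 to 6.6, also below DMSO, and with 3BRO 6.62 to 6.84. This sum was set mainly by PYK10, with a DMSO mean of 6.84 against -1.43 or lower for the other root markers. With 3B7N PYK10 changed by -0.49, and the other root markers by -0.87 to -1.81. Of 5 seed markers 0 passed (median -0.09), and their summed levels spanned -0.65 to 1.84 with DMSO and -0.81 to 0.66 with 3B7N. No list had a defining marker at 0, and each of the 15 markers was well above background on at least 9 of 12 arrays. The part of tissue makeup in the results on the 32 genes was not tested.

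Other genes of the same pathway were read from a list of 26, of which 25 were measured. Over all genes 10.0% were lower with 3B7N, 5.61% were higher and the median was -0.01. Of the 25 genes 8 fell with 3B7N, 1 rose and 16 did not pass, and the median was -0.33. Those that fell were PORC (-1.07), the protochlorophyllide oxidoreductase of light-grown tissue, CLD1 (-1.05), a chlorophyll dephytylase, CLH2 (-1.05), a chlorophyllase, SGRL (-0.91), a relative of SGR1, TIC55 (-0.74) and MES16 (-0.72), which act late in breakdown, GBP (-0.67), which binds glutamyl-tRNA reductase, and NOL (-0.61), the partner of NYC1. PORA, the oxidoreductase of dark-grown seedlings, was the gene that rose, by 4.27 log2 units (SE 0.37, limma adjusted p = 0.00015), and in the fit with slides blocked by 4.37 (adjusted p = 0.024), where 0 of the 8 that fell passed and all 8 stayed below 0, with PORC at -0.94 (adjusted p = 0.24). PORB was at 0.58 (95% interval 0.04 to 1.12) and did not pass. The SE of PORC was 0.21 against DMSO and 0.19 between 3B7N and 3BRO, because PORC lacked a value on a DMSO array.

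Of 11 regulators of the pathway 3 fell (27.3%), 2 rose and 6 did not pass. Over all genes 10.0% were lower and 5.61% higher. CGA1, a GATA factor of greening, fell by 1.99 (SE 0.20, limma adjusted p = 0.00031), and its relative GNC fell by 0.85 (SE 0.21, adjusted p = 0.022). GUN1, a plastid signalling protein, was the third, at -0.44 (SE 0.10, adjusted p = 0.016). PIF3, a repressor of greening in darkness, rose by 1.58 (SE 0.33, adjusted p = 0.0097), and ORE1, a NAC factor of senescence, by 1.55 (SE 0.38, adjusted p = 0.021). With slide as a block CGA1 was at -1.37 (limma adjusted p = 0.066), GNC at -0.27 (0.71), GUN1 at -0.43 (0.28), PIF3 at 2.01 (0.12) and ORE1 at 0.93 (0.41), and 0 of the 5 passed. HY5 (-0.74, adjusted p = 0.052), GLK1 (0.06) and GLK2 (-0.49), which promote transcription of the pathway, did not pass.

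With 3BRO, the compound without the nitro group, 0 of the 32 genes passed against DMSO, where 0.00425% of all genes were called. The differences lay between -0.39 and 0.10, with a median of -0.12 against -0.02 over all genes. In 28 of 32 genes they were below 0, as in 54.2% of all genes. After quantile normalisation 22 of 32 were below 0, with a median of -0.07. CHLH (-0.39, 95% interval -0.79 to 0.01) was the lowest, and CHLM (-0.35, -0.66 to -0.04) was the gene with an unadjusted p under 0.05 (limma adjusted p = 1). An unadjusted p under 0.05 was found in 875 of all 23553 genes. In HEMA1, CHLM and RCCR, 3 of 32 genes, every 3BRO array lay below every DMSO array, against 5.64% of all genes. The 95% intervals differed in width between genes, from -0.32 to 0.22 for HEMF1, the narrowest, to -1.03 to 0.70 for FC1, the widest. On slide 1, which held both treatments, 3BRO 1 differed from the 3 DMSO arrays by a median of -0.14.

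With 7NIT, the compound without the bromo group, 0 of the 32 genes passed against DMSO, where 0.0255% of all genes were called, 0.00849% as lower and 0.017% as higher. Differences ran from -0.21 to 0.36 with a median of 0.03, against 0.04 over all genes. HEME2 was the highest, at 0.36 (95% interval 0.01 to 0.71, limma adjusted p = 0.62), and the only gene of the 32 whose 7NIT arrays all lay above DMSO, as in 10.4% of all genes. The reverse order held for 0 of 32 genes and 7.68% of all genes. The median stayed between -0.05 and 0.09 under the alternatives with another scaling, probe rule or block. The intervals of the 32 genes reached from -0.86 to 0.87. No slide held both 7NIT and DMSO.

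The 3 pairs of chemicals were compared directly, with p-values adjusted over all genes within each pair. These comparisons, all at 2.5 µM and harvested alike, show where a group on the indazole ring went with a different level. They share their arrays with the comparisons with DMSO and are not independent of them. Between 3B7N and 3BRO, which differ by the nitro group, 6 of 32 genes were lower with 3B7N, or 18.8%, against 4.74% of all genes that were lower, 2.73% that were higher and 7.47% called. They were DVR (-1.0, SE 0.14, 95% interval -1.30 to -0.69, limma adjusted p = 0.0035), FC2 (-0.84, -1.27 to -0.42), GSA2 (-0.67, -0.99 to -0.35), HCAR (-0.61, -0.95 to -0.27), CHLI1 (-0.59, -0.91 to -0.27) and HEMF1 (-0.49, -0.76 to -0.22). The median over the 32 genes was -0.35. HEMA1 (-0.21, 95% interval -0.56 to 0.14) and CHLH (-0.34, -0.74 to 0.06) did not pass. On slide 2, with 2 arrays of each, the median was -0.35, with DVR at -1.01 and GSA2 at -0.74. There 27 of 32 genes were below 0, as were 52.5% of all genes. The count fell to 1 without 3BRO 2, to 2 without 3B7N 1 or 3B7N 3, and to 3 without 3BRO 3 or 7NIT 1, and DVR was called each time.

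**Figure D5:**
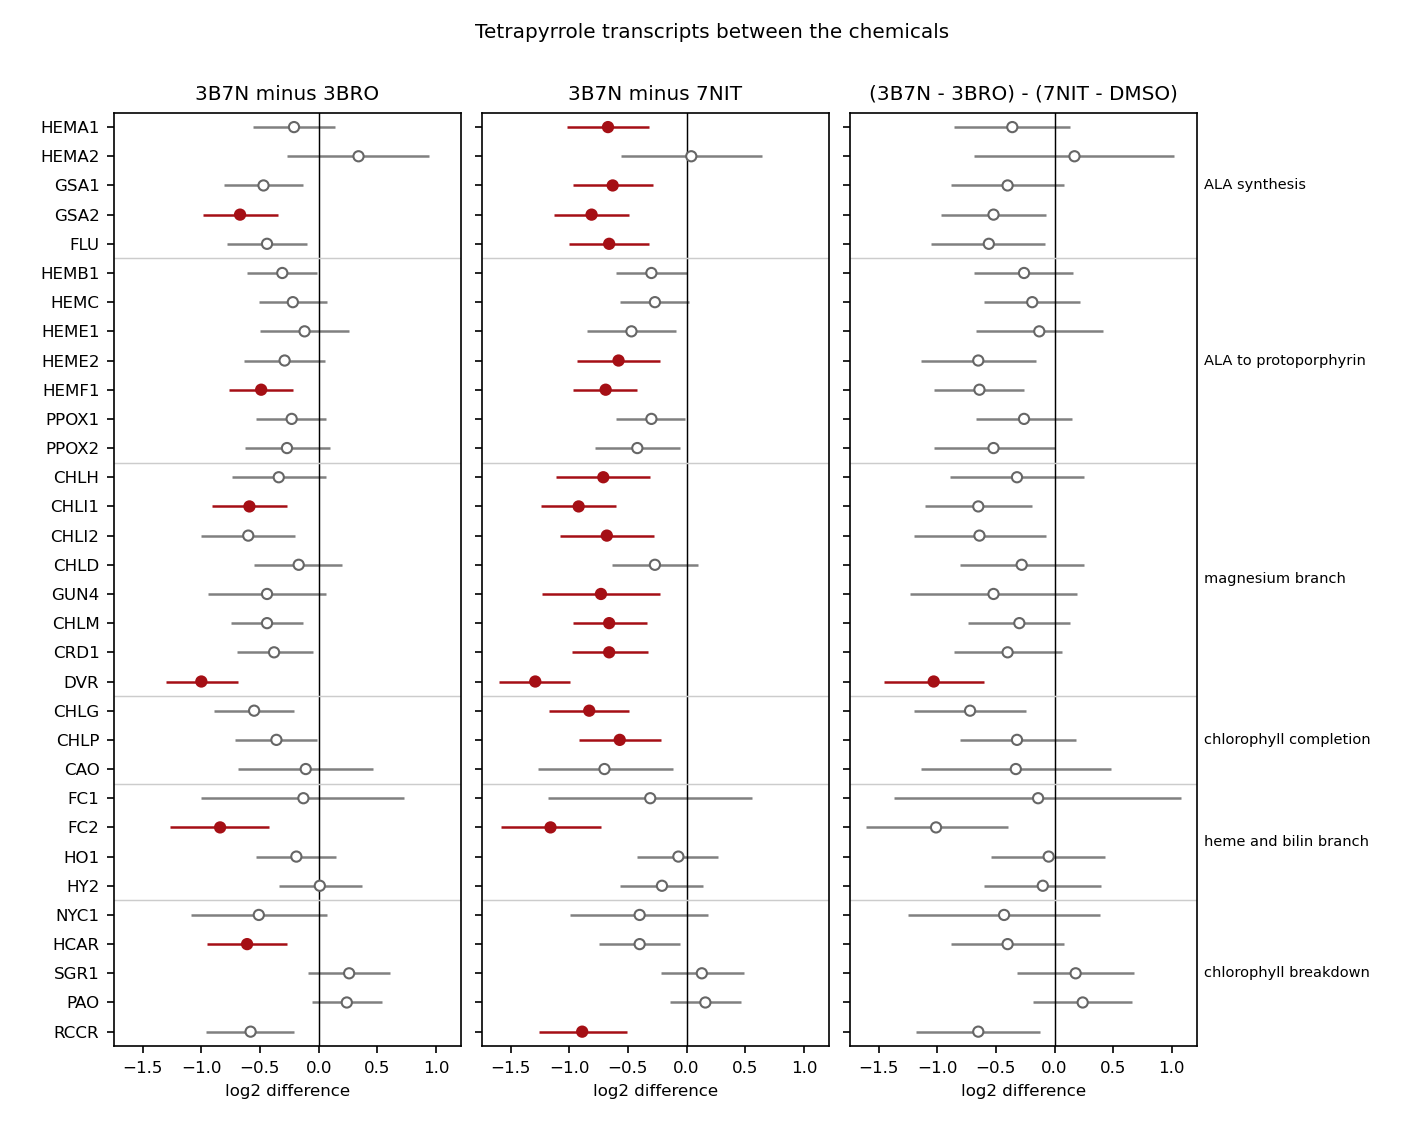
Log2 difference of each gene (points, with 95% confidence intervals as bars) between 3B7N and 3BRO, between 3B7N and 7NIT, and in the interaction, with filled red points for genes past the threshold. The panels hold 6, 17 and 1 filled points, all left of 0, and DVR is filled in each.

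Between 3B7N and 7NIT, which differ by the bromo group, 17 of 32 genes were lower with 3B7N (53.1%), against 12.5% of all genes that were lower, 5.99% that were higher and 18.5% called. DVR (-1.29, SE 0.14, 95% interval -1.60 to -0.99, limma adjusted p = 0.00039) and FC2 (-1.16, SE 0.19, adjusted p = 0.003) led again. CHLI1 (-0.92), RCCR (-0.89), CHLG (-0.83), GSA2 (-0.81), GUN4 (-0.73), CHLH (-0.71), HEMF1 (-0.69) and CHLI2 (-0.68) followed. HEMA1 (-0.67), FLU (-0.66), CHLM (-0.66), CRD1 (-0.66), GSA1 (-0.63), HEME2 (-0.58) and CHLP (-0.57) also passed. The median was -0.60, and on slide 3, with 1 3B7N and 3 7NIT arrays, it was -0.70. There 30 of 32 genes were below 0, as were 52.4% of all genes. Without 7NIT 1 the count was 8 and without 7NIT 3 it was 10, both with DVR, FC2, GSA2, CHLI1 and RCCR.

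Between 7NIT and 3BRO 0 of 32 genes passed, and 0.0212% of all genes were called, 0.0127% as lower and 0.00849% as higher. The median difference was 0.21 with 7NIT above 3BRO, against 0.05 over all genes. The difference was below 0 in 4 of 32 genes (12.5%) and in 42.9% of all genes. After normexp background correction the median of the 32 genes was 0.17, and that of all genes was also 0.17. HEMA1 (0.46, 95% interval 0.11 to 0.81), CAO (0.58, 0.01 to 1.16) and CHLI1 (0.33, 0.01 to 0.65) had unadjusted p under 0.05, with limma adjusted p of 0.47 to 0.53. These were 3 of 32 genes, a share near that of all genes, where 2198 of 23553 had an unadjusted p under 0.05.

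The interaction takes the difference of 3B7N from 3BRO and subtracts the difference of 7NIT from DMSO, so that 0 means additive log2 changes. Of the 32 genes 1 was called, DVR, with a value below 0, and 0.645% of all genes were called, 0.306% below 0 and 0.34% above. For DVR the nitro group went with a change of 0.03 in the absence of bromo (7NIT against DMSO) and of -1.0 in its presence (3B7N against 3BRO), and the difference was -1.03 (SE 0.19, 95% interval -1.45 to -0.60, limma adjusted p = 0.046). The value was between -0.91 and -1.09 when any 1 array was left out, but it passed in 1 of those 12 fits, the one without 3B7N 2. FC2 had a similar value of -1.01 that did not pass (adjusted p = 0.11). In 29 of 32 genes the interaction was below 0, as it was in 54.4% of all genes, with a median of -0.38 against -0.05 over all genes.

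Several probes were available for 13 of the 32 genes, which gave 14 further probes beside those used. All 14 were below 0 for 3B7N against DMSO, with differences of -0.26 to 0.14 from the probe used. For 7NIT against DMSO they diverged: 13 of 14 further probes were below 0, while the probes used were below 0 for 6 of the 13 genes, and the median difference was -0.30. For 7NIT against 3BRO 13 of 14 further probes were lower than the probe used, by a median of -0.31, and 9 of the 14 were below 0 where 3 of the 13 probes used were. For 3B7N against 7NIT 13 of 14 further probes were below 0, but 13 of 14 lay above the probe used, with a median difference of 0.15 over the 14 and a largest one of 0.40, with GSA2 at -0.42 against -0.81 and HEMF1 at -0.29 against -0.69. The further probe of GSA2 gave -0.60 for 7NIT against DMSO, and the probe used gave -0.15. For the same 2 treatments these values were -0.52 and -0.03 in HEMC, and -0.29 and 0.16 in HEMF1. With the mean of all passing probes, the comparison of 7NIT with DMSO held 0 calls among the 32 genes.

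In the authors' deposited table, which lists 1779 probes for 3B7N against DMSO with folds of at least 2 and no direction, 3 probes belong to the 32 genes. The authors' deposited table gives DVR a fold of 2.4 (corrected p = 0.00672), CHLI1 2.12 (corrected p = 0.0161) and GSA2 2.02 (corrected p = 0.0316), where those of CHLI1 and GSA2 are their further probes. Among the 14 probes listed there for 7NIT, 0 belong to the 32 genes, per the authors' deposited table.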

How the data were processed

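The deposited scanner files hold spot intensity on a linear scale. The submitters' processing notes name Agilent Feature Extraction 10.7.3.1, and per the file headers its processed signal includes a background correction. The authors' deposited fold values (linear ratios without direction) and corrected p-values are a separate table. Signals of 3BRO 2 are rounded to 3 digits and were used as they are.

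Control spots and spots marked as outliers were left out. Log2 signals were set to 0 at each array's 75th percentile. A probe was kept if 1 or more treatments had it well above background on every array, and each locus took its brightest passing probe. All 12 arrays entered 1 limma 3.58.1 fit (lmFit, eBayes, R 4.3.3), tested on simulated data, with Benjamini-Hochberg adjustment over 23553 genes in each of 7 comparisons. Intervals are 95% confidence intervals. The number of arrays limits the precision.

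The 32 genes, the lists and the markers were chosen with earlier results of these data known. All 32 are named for 3B7N against DMSO, and elsewhere the genes past the threshold. Values on every array are given for the 8 lowest called genes and the paralogue pairs. Names were checked in a RefSeq table of assembly TAIR10.1, which held all 32 loci. No coordinates or sequences are given.

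Replicate numbers in the titles are shared between treatments. Deviations of same-numbered arrays correlated above 0.1 in all 3 pairs for DMSO with 3BRO (0.399, 0.143 and 0.444) and for 3BRO with 7NIT (0.115, 0.236 and 0.197), and not in all pairs elsewhere. Alternatives were other background corrections (normexp with an offset of 50 on the median signal, in place of the planned mean signal), normalisations, filters and probe rules, blocks, and arrays left out.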

Additional observations from a re-analysis of the deposited data

Results flagged for a closer look

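DVR was the 1 gene of the 32 called in the interaction (-1.03, SE 0.19, limma adjusted p = 0.046). That test compares the change with the nitro group between bromo present and absent. The call was kept without 3B7N 2 and lost in every other fit with 1 array left out. It was also lost after normexp, without a filter on dim probes and with scan day fixed. FC2 was at -1.01 (limma adjusted p = 0.11). An unadjusted p under 0.05 was found in 11 of the 32 genes and in 3903 of all 23553 genes. DVR lay at 2.68, 2.75 and 2.62 on the 3B7N arrays and between 3.55 and 4.11 on the other 9. No slide held all 4 treatments, and with slide as a block the interaction was -1.0 (adjusted p = 0.13).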

How the results depend on the processing

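For 3B7N against DMSO the 15 called genes kept their sign under all 22 alternatives, and the count was 11 after quantile normalisation, 14 without a filter on dim probes, 16 with probes well above background on all arrays, 15 with the mean of probes and 15 with slide as a random block. It was 9 after normexp background correction, 5 with only the groups compared in the fit, 2 with slide as a fixed block, 2 with scan day as a fixed block, and 9 to 15 with 1 array left out. For 3B7N against 3BRO it was 2 after normexp, 3 without a filter, 1 with only the groups compared, 2 with slide fixed and 1 to 6 with 1 array left out. For 3B7N against 7NIT it was 11 after normexp, 10 with slide fixed and 8 to 17 with 1 array left out. The interaction held 0 after normexp, without a filter, with slide fixed and with scan day fixed, and 0 to 1 with 1 array left out. For 3BRO and 7NIT against DMSO and against each other it was 0 throughout. The replicate block gave 15, 6, 16 and 1 called genes for 3B7N against DMSO, 3BRO and 7NIT and the interaction, and 0 for the others, and moved no count by over 1.5 times. HCAR and GUN4 lost a call under it and GSA1 gained a call, each in a comparison between chemicals. The cause of these shifts was not tested. Fits with fewer arrays or with blocks have fewer degrees of freedom. For 3B7N against DMSO the replicate block gave 4292 calls over all genes, against 3677 without it.

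Uncalled genes turned positive for 3B7N against DMSO with slide fixed (HEME1 0.02, PPOX2 0.09, CHLD 0.11, HY2 0.37, NYC1 0.07), with scan day fixed (PPOX2 0.12, HY2 0.26, NYC1 0.26), and with 1 array left out (HY2 from -0.22 to 0.01, above 0 without 3B7N 3, and FC1 from -0.64 to 0.13, above 0 without 3B7N 1). Over all genes 3677 were called for 3B7N against DMSO, and 1708 after normexp, 1869 with only the groups compared, 750 with slide fixed and 609 with scan day fixed. Quantile normalisation changed the split of higher and lower calls from 1321 and 2356 to 1806 and 1903. For 3B7N against 3BRO 1759 genes were called, or 645 after normexp, 224 with only the groups compared and 1152 with slide fixed. For 3B7N against 7NIT 4360 were called, or 2369 after normexp and 1957 with slide fixed. For the interaction 152 were called, or 88 without a filter, 98 with slide fixed and 0 after normexp. For 3BRO against DMSO 1 was called, or 42 with slide fixed, 37 with scan day fixed and 0 after normexp or with only the groups compared. For 7NIT against DMSO 6 were called, or 2 after normexp, 12 after quantile normalisation, 3 with the stricter filter, 35 with slide fixed, 100 with scan day fixed and 13 with the replicate block. For 7NIT against 3BRO 5 were called, or 1 after normexp, 8 after quantile normalisation, 0 with slide fixed and 12 with scan day fixed. Normexp shifted the median of all genes to -0.14 for 3B7N against DMSO, -0.24 against 7NIT, 0.13 for 7NIT against DMSO and 0.17 for 7NIT against 3BRO, where the medians of the 32 genes were -0.51, -0.47, 0.01 and 0.17. With 3 arrays per treatment standard errors of 0.12 to 0.39 limit what can be detected.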
